A study of Mus musculus with 21 samples.

Results

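Surface pit cells (foveolar cells) line the mouth of each gastric gland and the surface of the stomach. The members described here are 8 genes of those cells, chosen by name with earlier results of these data known. Each was read from the array row whose annotation names exactly that gene. All 8 were measured, each by a single row, out of 22180 genes tested. The samples were corpus cells of mice that carry a green fluorescent protein reporter of Lgr5 (Lgr5GFP), sorted by flow cytometry into reporter high, low and negative populations. The tamoxifen groups (high, low and negative, 4 arrays each) came from mice injected with 0.27 mg tamoxifen per g of body weight 24 hours before isolation. The control groups (high, low and negative, 3 arrays each) came from untreated mice whose titles call them uninjected. All groups share the reporter, strain and age are not given in the labels used here, and no vehicle group is among the samples, so drug, injection and sort cannot be told apart between treatments. The design text calls the replicates technical and taken from individual sorting runs, so every p-value measures only the spread between these samples.

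Pit cells secrete the gel of mucus that shields the stomach wall from acid. MUC5AC is the gel-forming mucin of that layer, the trefoil factor TFF1 is secreted with it, and the gastrokines GKN1 and GKN2 are small secreted proteins of the same cells. MUC1 is a membrane-bound mucin of many epithelia, Mucl3 encodes a mucin-like protein, Anxa10 an annexin found in gastric epithelium, and Adh7 an alcohol dehydrogenase of the upper digestive tract that oxidises ethanol and retinol. Neighbouring cell types of the corpus gland are mucous neck cells, acid-secreting parietal cells and, at the base, chief cells.

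Levels are the deposited log2 signals, in which a step of 1 is a doubling, and levels of different genes were not set against each other because each row has its own probes. The 95th percentile of the mean signal of 1105 olfactory receptor genes, 4.16, served as a guide to background, and the highest value of the whole table was 13.55. The reporter gene Lgr5 lay between 8.05 and 8.74 in tamoxifen high, 6.49 and 7.01 in tamoxifen low, 4.42 and 4.81 in tamoxifen negative, 8.40 and 9.15 in control high, 7.48 and 7.71 in control low, and 4.06 and 4.82 in control negative cells. One label of the 3 control negative samples names them low, whereas their titles and population labels say negative. Arrays of a group correlated at 0.944 to 0.991. Of the 5 measured squamous epithelium markers, all were at or under background in every group.

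Most members had their highest level in reporter-negative cells, Anxa10 was about as high in tamoxifen low as in tamoxifen negative cells, and Muc1 was nearly even across populations. In the negative populations, 8 of 8 members averaged above background, against 7 of 8 in tamoxifen high, control high and control low cells, where the exception was Adh7. The mean over the 8 genes ran from 6.85 to 8.34 on the tamoxifen high arrays, 8.87 to 9.77 on tamoxifen low, 10.64 to 11.26 on tamoxifen negative, 7.53 to 8.47 on control high, 7.95 to 8.62 on control low and 11.46 to 11.50 on control negative arrays. The arrays of control negative cells lay closest together, and those of tamoxifen high cells farthest apart. In bulk samples, fewer cells of a type and less RNA per cell cannot be told apart.

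**Figure D1:**
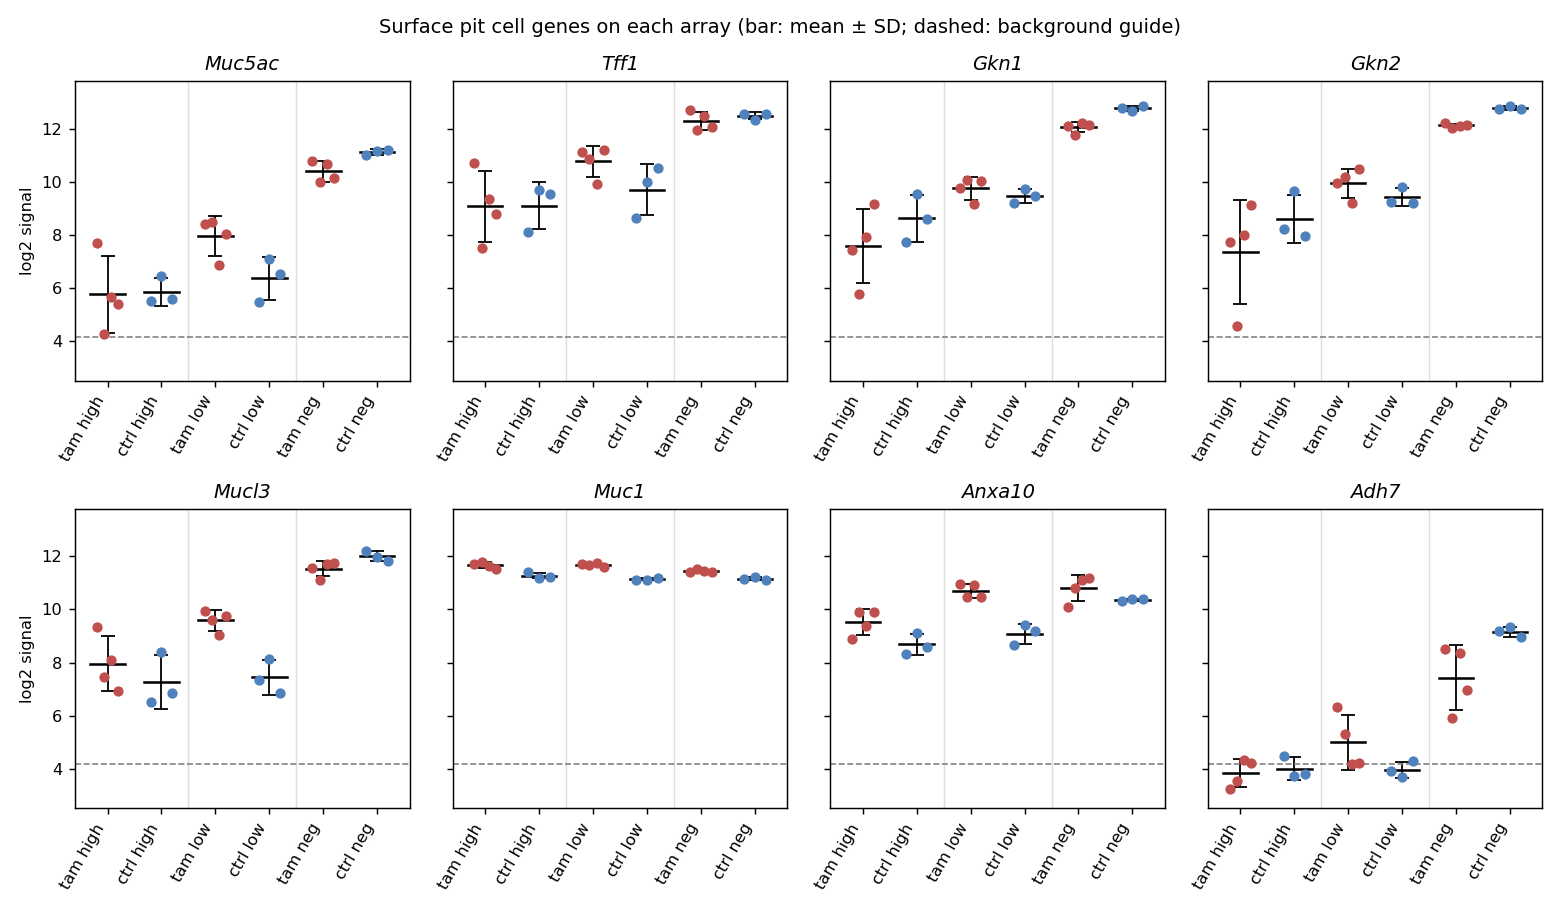
Log2 signal (vertical axis) of the 8 surface pit cell genes on each of the 21 arrays, by group (tam, tamoxifen; ctrl, control; neg, negative); black bars are the mean ± SD and the dashed line is the background guide of 4.16. Muc5ac, Tff1, Gkn1, Gkn2, Mucl3 and Adh7 are highest in the negative groups, Muc1 stays between 11.10 and 11.80, and Adh7 lies near the background guide in the high groups.

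In control mice, reporter-high cells held much less signal of the secreted surface products than reporter-negative cells. A gene was called when limma's moderated test over all genes gave a Benjamini-Hochberg adjusted p under 0.05. By that rule 7 of 8 members were lower in control high than in control negative cells, where 7.66% of all genes were lower, and the median difference of the 8 was -4.17 against 0.04 over all genes. Muc5ac had 5.50, 6.45 and 5.57 in control high cells and 11.00, 11.17 and 11.21 in control negative cells. The groups did not overlap, and the difference was -5.29 ± 0.59 (SE), a 39.1-fold lower signal (limma adjusted p = 8.46e-06). Tff1 was 10.5-fold lower in control high cells, with levels of 8.09, 9.68 and 9.53 in control high and 12.57, 12.35 and 12.55 in control negative cells. Gkn1 and Gkn2 were 17.9-fold and 18.2-fold lower in control high cells, with control negative levels of 12.68 to 12.87. Mucl3 was 26.8-fold lower and Anxa10 3.22-fold lower in control high cells. Adh7 averaged at background in control high cells (4.49, 3.70 and 3.78, the first above the guide). It had 9.17, 9.34 and 8.95 in control negative cells, so its mean signal was at least 31.9-fold lower in control high cells. Muc1 was the exception, with 11.41, 11.20 and 11.24 in control high cells and 11.15, 11.22 and 11.12 in control negative cells, a difference of 0.12 ± 0.12 (adjusted p = 0.667).

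Control low cells also held less of the surface products. Against control negative cells, 7 of 8 members were lower in control low cells, where 3.41% of all genes were lower, and again Muc1 was the exception with -0.02 ± 0.12. Muc5ac had 5.48, 7.07 and 6.52 in control low cells and was 27.3-fold lower than in control negative cells. Mucl3 had 7.35, 8.14 and 6.84 in control low cells, 23.6-fold lower. Gkn1 and Gkn2, at 9.21 to 9.81 in control low cells, were 9.93-fold and 10.3-fold lower, Tff1 6.88-fold and Anxa10 2.43-fold. The Tff1 call was lost without control low 1 (adjusted p = 0.0685), and that of Anxa10 without control low 1 or control negative 3 (adjusted p up to 0.103). Adh7 averaged at background in control low cells, at least 31.9-fold lower. Between control high and control low cells 0 of 8 members passed the limma test, 0 had an unadjusted p under 0.05, and 1.34% of all genes passed. The 95% interval of the Muc5ac difference there ran from -1.75 to 0.71, and that of Mucl3 from -1.20 to 0.84, so differences within those limits were not excluded.

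In tamoxifen mice the order of the populations was high, low, negative for the secreted genes. Between tamoxifen high and tamoxifen negative cells 7 of 8 members were lower, where 6.97% of all genes were lower, with a median of -3.59. Muc5ac had 7.70, 4.25, 5.65 and 5.39 in tamoxifen high cells and 10.80, 9.98, 10.68 and 10.14 in tamoxifen negative cells. The lowest of these, tamoxifen high 2, was just above background, and the difference was -4.65 ± 0.51, a 25.1-fold lower signal. Gkn2 was 27.3-fold, Gkn1 22.4-fold, Mucl3 12.0-fold, Tff1 9.36-fold and Anxa10 2.44-fold lower in tamoxifen high cells, and Adh7 at least 9.63-fold. Muc1 differed by 0.23 ± 0.11 (adjusted p = 0.196). Leaving out any 1 array kept all 7 calls of this comparison and all 7 of control high against control negative cells.

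Tamoxifen low cells lay between the other populations for Muc5ac, Tff1, Gkn1, Gkn2 and Mucl3. Against tamoxifen negative cells 4 of 8 members were lower (Muc5ac, Gkn1, Mucl3 and Adh7), where 1.73% of all genes were lower. Muc5ac had 8.40, 8.47, 6.84 and 8.04 in tamoxifen low cells, all under the tamoxifen negative arrays, and was 5.50-fold lower. Gkn1 was 4.94-fold and Mucl3 3.84-fold lower, and the Mucl3 call was lost without tamoxifen low 3 or tamoxifen negative 3 (adjusted p up to 0.0576). Adh7 had 6.33, 5.32, 4.16 and 4.19 in tamoxifen low cells and 8.49, 5.91, 8.36 and 6.95 in tamoxifen negative cells, so the groups overlapped although the call was made (-2.43 ± 0.49, adjusted p = 0.00736), and it was lost when only these 2 groups were fitted (adjusted p = 0.0701). Gkn2 differed by -2.17 ± 0.60 (adjusted p = 0.0676), and passed when only these groups were fitted (adjusted p = 0.00096), and Tff1 by -1.53 ± 0.51 (adjusted p = 0.149, and 0.0178 in that fit). Anxa10 differed by -0.11 ± 0.26.

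Between tamoxifen high and tamoxifen low cells 5 of 8 members were lower in high cells, where 1.77% of all genes were lower. The differences were -2.60 ± 0.60 for Gkn2, -2.19 ± 0.51 for Muc5ac, -2.18 ± 0.46 for Gkn1, -1.64 ± 0.42 for Mucl3 and -1.18 ± 0.26 for Anxa10 (adjusted p from 0.0111 to 0.0351). These calls rest on the spread shared by all 6 groups: none of the 5 passed when only the 2 groups were fitted (adjusted p from 0.0517 to 0.156). Leaving out 1 array gave 1 to 6 calls, with 1 without tamoxifen low 1, 2 without tamoxifen low 2, and 3 without tamoxifen high 2, tamoxifen high 3, tamoxifen high 4 or tamoxifen low 4. Without tamoxifen high 2 the Gkn2 difference was -1.66. The 2 groups overlapped for Muc5ac (7.70 on tamoxifen high 1, 6.84 on tamoxifen low 3) and Mucl3 (9.33 and 9.04 on the same arrays). They also overlapped for Gkn1 (9.16 on tamoxifen high 4, 9.15 on tamoxifen low 3), but not for Gkn2 and Anxa10.

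Markers of other cell types also separated the populations. The 7 tuft cell markers averaged 7.12 to 9.76 in tamoxifen high and 5.43 to 6.41 in tamoxifen negative cells (5 of 7 higher), and 9.74 to 10.50 in control high and 6.32 to 7.48 in control negative cells (6 of 7 higher). The 7 endocrine cell markers averaged 5.03 to 8.61 in tamoxifen high and 9.74 to 11.56 in tamoxifen negative cells (6 of 7 lower), and 6.05 to 7.10 in control high and 8.50 to 9.82 in control negative cells (5 of 7 lower). Over all genes, 6.97% were lower in tamoxifen high than in tamoxifen negative cells, and 7.66% in control high than in control negative cells. In tamoxifen low cells the endocrine markers, at 6.29 to 9.05, were also under the tamoxifen negative range (4 of 7 lower, against 1.73% of all genes). In control low cells 3 of 6 chief cell markers were higher than in control negative cells, with means of 9.23 to 9.58 in control low and 8.25 to 8.50 in control negative cells. Between tamoxifen high and tamoxifen low cells 6 of 7 tuft cell markers were higher and 4 of 8 parietal cell markers lower in high cells. There 1.77% of all genes were lower. The share of all genes that were higher was not counted for these population comparisons, so the counts of higher markers stand without it. The part of these markers in the members' differences was not tested.

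Each population was then compared between treatments, to see how the surface genes differed after the injection. In low cells 3 of 8 members were higher with tamoxifen, where 5.35% of all genes were higher and 8.32% passed in either direction, and the median of the 8 was 1.05 against 0.01 over all genes. Mucl3 had 9.94, 9.62, 9.04 and 9.77 in tamoxifen low cells and 7.35, 8.14 and 6.84 in control low cells. It was 4.43-fold higher (2.15 ± 0.46, adjusted p = 0.00507) and the groups did not overlap, as for Anxa10 and Muc1 (3 of 8 members, against 21.2% of all genes). Anxa10 had 10.96, 10.46, 10.91 and 10.46 in tamoxifen low cells and 8.67, 9.40 and 9.18 in control low cells, a 3.06-fold difference (1.61 ± 0.28, adjusted p = 0.000855). Muc1 had 11.73, 11.69, 11.74 and 11.60 in tamoxifen low cells and 11.13, 11.10 and 11.19 in control low cells, which is a small difference, 1.46-fold, with little spread (0.55 ± 0.11, adjusted p = 0.00429). All 3 calls held when any 1 array was left out.

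The secreted members differed less clearly in low cells. Muc5ac differed by 1.58 ± 0.55 (adjusted p = 0.0864), and passed without tamoxifen low 3 (adjusted p = 0.038) or with only the 2 groups fitted (adjusted p = 0.0388). Tff1 differed by 1.06 ± 0.55, Gkn2 by 0.53 ± 0.65 and Gkn1 by 0.29 ± 0.50. The gastrokines overlapped between treatments, at 9.15 to 10.48 in tamoxifen low and 9.21 to 9.81 in control low cells. Adh7 was above the background guide on 3 of 4 tamoxifen low arrays and 1 of 3 control low arrays. Control low cells averaged at background and the tamoxifen low mean lay 1.79-fold above the guide, a comparison that did not pass (limma adjusted p = 0.263). Leaving out 1 array gave 0.52 to 1.46 for Tff1 (lowest without control low 1), 0.17 to 0.50 for Gkn1 and 0.35 to 0.78 for Gkn2, and the fitted Adh7 difference of 1.04 was 0.60 without tamoxifen low 1.

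In the same low cells markers of other types differed between treatments, where 2.98% of all genes were lower with tamoxifen. The mean log2 level of 7 tuft cell markers was 5.12 to 6.52 on tamoxifen low and 7.93 to 9.28 on control low arrays, with 6 of 7 lower. That of 8 parietal cell markers was 6.28 to 7.14 on tamoxifen low and 7.90 to 8.58 on control low arrays, with 5 of 8 lower. The 6 chief cell markers averaged 8.13 to 8.48 and 9.23 to 9.58 (2 of 6 lower), the 6 mucous neck cell markers 7.87 to 9.47 and 9.78 to 10.64 (2 of 6 lower), and the 7 endocrine cell markers 6.29 to 9.05 and 8.33 to 10.28 (2 of 7 lower), tamoxifen low before control low in each. The reporter gene Lgr5 was 6.49 to 7.01 on tamoxifen low and 7.48 to 7.71 on control low arrays. The part of these differences in the members' results was not tested.

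**Figure D2:**
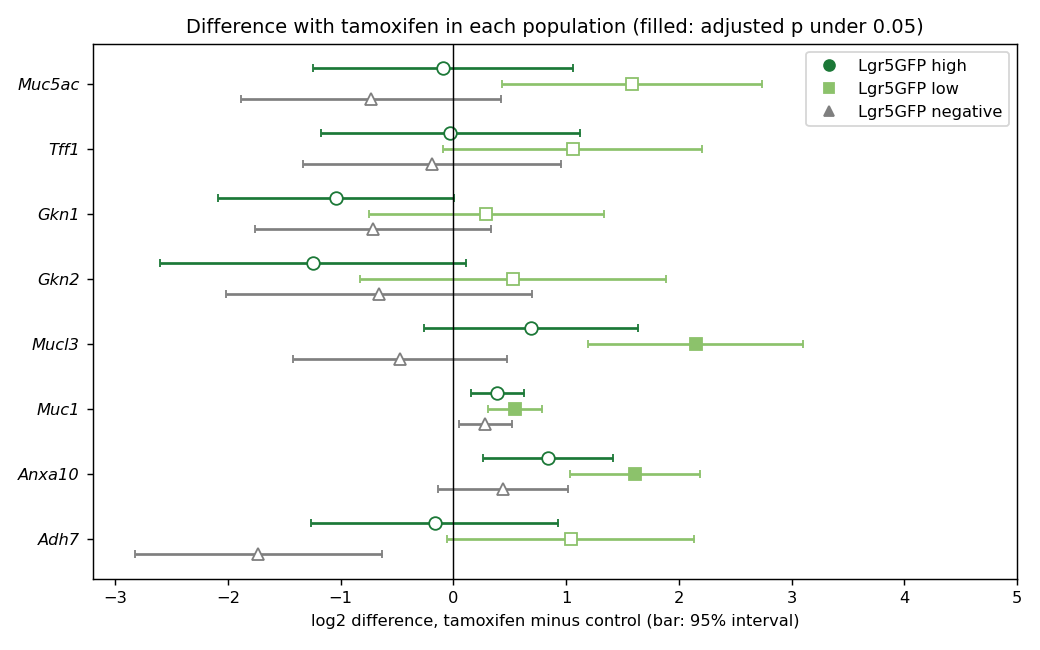
Tamoxifen minus control log2 difference (horizontal axis) with its 95% interval for each surface pit cell gene (rows) in high (circles), low (squares) and negative cells (triangles); filled symbols passed the limma test. Only Mucl3, Muc1 and Anxa10 in low cells are filled, at 2.15, 0.55 and 1.61.

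The promoters of the 3 members higher in tamoxifen low cells are shown because these genes share that difference, as the 250 bases before the annotated start (RefSeq, assembly GRCm38.p6; 6 of the 8 members are in the table used). They lie at chr17:35643696-35643945 (minus strand), chr8:62123194-62123443 (minus strand) and chr3:89228806-89229055 (plus strand), and capitals mark matches to 4 motifs searched on both strands.
Mucl3: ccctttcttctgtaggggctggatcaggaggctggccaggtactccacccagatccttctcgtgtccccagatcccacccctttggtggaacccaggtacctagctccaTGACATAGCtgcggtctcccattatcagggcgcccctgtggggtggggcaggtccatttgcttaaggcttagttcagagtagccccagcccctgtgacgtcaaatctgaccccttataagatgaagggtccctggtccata
Anxa10: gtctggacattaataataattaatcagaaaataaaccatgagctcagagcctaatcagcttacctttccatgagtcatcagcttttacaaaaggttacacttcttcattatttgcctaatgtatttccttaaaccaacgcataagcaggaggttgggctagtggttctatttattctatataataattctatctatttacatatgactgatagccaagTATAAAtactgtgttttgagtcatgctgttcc
Muc1: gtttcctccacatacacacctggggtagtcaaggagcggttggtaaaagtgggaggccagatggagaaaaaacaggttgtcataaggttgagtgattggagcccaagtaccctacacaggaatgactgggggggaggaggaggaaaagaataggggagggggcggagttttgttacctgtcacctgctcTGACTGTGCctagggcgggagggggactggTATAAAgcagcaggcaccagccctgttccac
The motifs were the TATA box TATAAA, found in 12.4% of 32851 such windows, the GATA motif AGATAA (9.99%), the forkhead motif TGTTTA (12.0%) and the antioxidant response motif TGACNNNGC (10.2%). The capitals are TGACNNNGC matches in Mucl3, 141 bases before the start, and in Muc1, 61 bases before it, and TATAAA matches in Anxa10, 32 bases before the start, and Muc1, 31 bases before it. No motif was shared by all 3 windows.

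In high cells 0 of 8 members passed the limma test between treatments, 2 had an unadjusted p under 0.05 (Anxa10 and Muc1), and 2.73% of all genes passed. Muc1 had 11.70, 11.80, 11.64 and 11.55 in tamoxifen high cells and 11.41, 11.20 and 11.24 in control high cells, without overlap (the 1 such member, against 10.4% of all genes), and the difference of 0.39 ± 0.11 had an adjusted p of 0.0709. It passed without tamoxifen high 4 (adjusted p = 0.0328) and with trended, robust variances (adjusted p = 0.038). Anxa10 differed by 0.84 ± 0.28 (adjusted p = 0.11). Gkn1 and Gkn2 differed by -1.04 ± 0.50 and -1.25 ± 0.65, with the 4 tamoxifen high arrays spread over 5.77 to 9.16 and 4.55 to 9.12. The Gkn1 difference passed without tamoxifen high 4 (adjusted p = 0.0305). Without tamoxifen high 2, Gkn1 and Gkn2 differed by -0.44 and -0.31 (adjusted p = 0.666 and 0.775), and leaving out each array in turn gave -1.57 to -0.44 for Gkn1 and -1.84 to -0.31 for Gkn2. Muc5ac and Tff1 differed by -0.09 and -0.03, with -0.74 to 0.41 and -0.57 to 0.50 when 1 array was left out.

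In negative cells 0 of 8 members passed between treatments, 2 had an unadjusted p under 0.05 (Muc1 and Adh7), and 2.32% of all genes passed. The treatments did not overlap for 6 of 8 members, against 15.3% of all genes. Muc1 was 0.28 ± 0.11 higher. Muc5ac (-0.73), Gkn1 (-0.71), Gkn2 (-0.66) and Mucl3 (-0.47) were each lower on all 4 tamoxifen arrays than on the 3 control arrays. Gkn1 had 12.11, 11.77, 12.23 and 12.15 in tamoxifen negative cells and 12.77, 12.68 and 12.87 in control negative cells, and it passed only with these groups fitted alone (adjusted p = 0.0449), as did Gkn2 (adjusted p = 0.03). Adh7 had 8.49, 5.91, 8.36 and 6.95 in tamoxifen negative cells, all below the control negative range of 8.95 to 9.34 (-1.73 ± 0.53, adjusted p = 0.101).

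Whether the tamoxifen difference itself differed between populations was tested by interaction terms, and 0 of 8 members passed in any of the 3. The shares of all genes that passed were 0.839% for low minus negative, 0.248% for high minus negative and 0.0271% for high minus low, and 4, 1 and 2 members had an unadjusted p under 0.05. The low minus negative term was 2.62 ± 0.65 for Mucl3 (adjusted p = 0.0616) and 2.31 ± 0.78 for Muc5ac (adjusted p = 0.252). Fitted with only its own 4 groups, the low minus negative term passed for 2 members, Mucl3 and Muc5ac.

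The gastrokine genes Gkn1, Gkn2 and Gkn3 are neighbours on mouse chromosome 6 in the GRCm38.p6 annotation. Gkn3, known in mouse from mucous neck cells, was higher in high than in negative cells, the opposite of Gkn1 and Gkn2. The other mucous neck cell markers did not all follow Gkn3. In control mice Tff2, Muc6, A4gnt and Agr2 differed by -0.59, -0.73, -0.37 and -0.86 (high minus negative), and Cftr, at background, by 0.42. None of these passed. In tamoxifen mice A4gnt was 2.44 higher in high cells (limma adjusted p = 0.00706). Muc6, Agr2, Cftr and Tff2 differed there by 1.35, 0.70, 1.92 and -0.61 and did not pass. Gkn3 had 12.15, 10.85, 11.69 and 11.23 in tamoxifen high cells and 9.78, 9.13, 7.85 and 6.48 in tamoxifen negative cells, a difference of 3.17 ± 0.53 (adjusted p = 0.000476), where Gkn1 and Gkn2 differed by -4.49 and -4.77. In control mice it was 2.00 ± 0.61 higher in high than in negative cells (adjusted p = 0.0328), a call lost without any 1 of 5 arrays (control high 2 or 3, or any control negative array; adjusted p up to 0.151) and with trended, robust variances (adjusted p = 0.0561). In tamoxifen low against tamoxifen negative cells it was 2.12 ± 0.53 higher (adjusted p = 0.0341), a call lost without any 1 of 5 arrays (tamoxifen low 1, 2 or 4, tamoxifen negative 3 or 4; adjusted p up to 0.127), with only those groups fitted (adjusted p = 0.13) and with trended, robust variances (adjusted p = 0.0648).

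The upstream windows of the gastrokine genes are shown because neighbours on the chromosome had opposite patterns. They lie at chr6:87350916-87351165 (minus strand), chr6:87373115-87373364 (plus strand) and chr6:87388936-87389185 (minus strand) of the same annotation, with capitals as before.
Gkn1: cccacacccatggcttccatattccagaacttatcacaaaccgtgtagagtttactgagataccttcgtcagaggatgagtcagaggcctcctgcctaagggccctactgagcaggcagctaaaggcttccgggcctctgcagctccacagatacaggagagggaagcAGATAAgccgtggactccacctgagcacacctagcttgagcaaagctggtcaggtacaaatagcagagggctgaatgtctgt
Gkn2: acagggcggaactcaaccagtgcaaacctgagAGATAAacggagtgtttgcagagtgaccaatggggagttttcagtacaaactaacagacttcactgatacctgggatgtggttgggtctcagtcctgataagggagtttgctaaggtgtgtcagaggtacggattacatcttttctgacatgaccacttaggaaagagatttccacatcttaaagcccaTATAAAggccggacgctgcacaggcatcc
Gkn3: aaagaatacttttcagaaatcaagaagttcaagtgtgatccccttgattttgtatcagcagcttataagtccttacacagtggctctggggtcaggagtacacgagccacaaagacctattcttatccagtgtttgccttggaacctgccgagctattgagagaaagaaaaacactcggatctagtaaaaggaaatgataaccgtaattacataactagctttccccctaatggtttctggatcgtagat
Gkn1 and Gkn2 each hold AGATAA, 82 and 218 bases before the start, and Gkn2 also holds TATAAA 29 bases before it. Gkn3 holds none of these letters in its window. The window of Muc6, a mucous neck cell marker, also holds AGATAA, 194 bases before the start. Those of the members Adh7, Mucl3, Anxa10 and Muc1 hold no AGATAA. A match of letters does not show that a factor binds there.

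**Figure D3:**
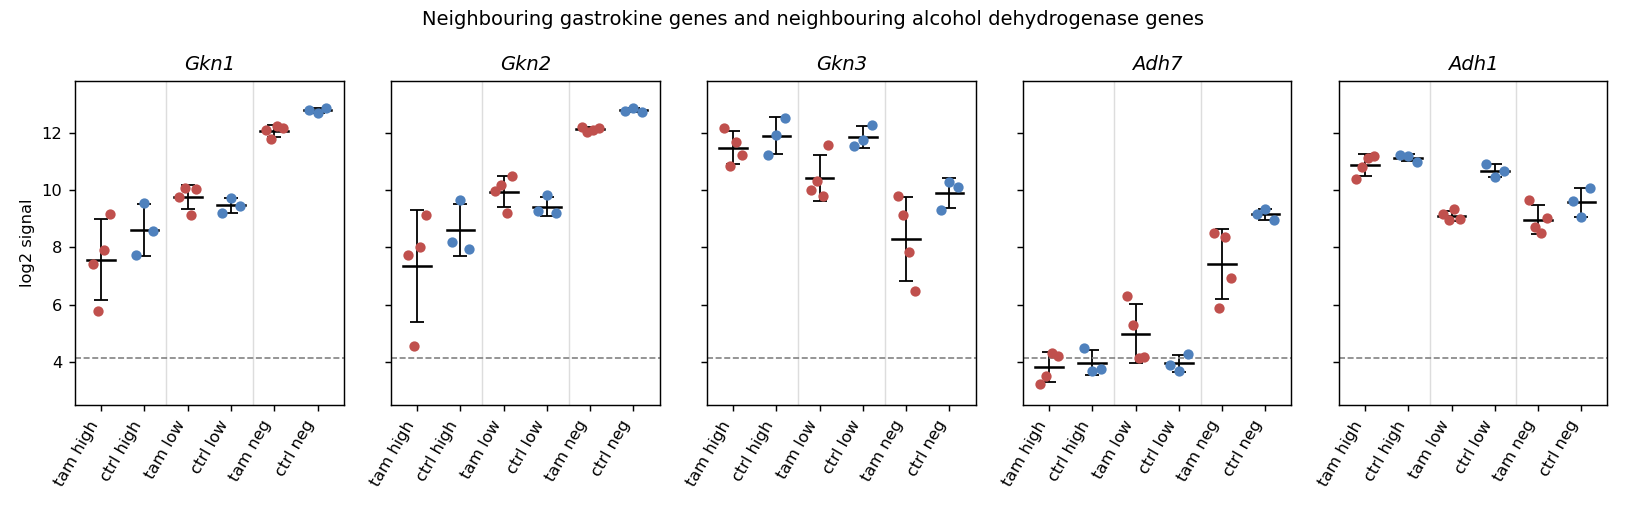
Log2 signal (vertical axis) on each array, by group, for the neighbouring gastrokine genes Gkn1, Gkn2 and Gkn3 and for the neighbouring alcohol dehydrogenase genes Adh7 and Adh1; bars are the mean ± SD and the dashed line is the background guide of 4.16. Gkn1, Gkn2 and Adh7 are highest in negative cells, and Gkn3 and Adh1 are higher in high than in negative cells.

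Of 6 trefoil, gastrokine and gel-forming mucin relatives, 1 was higher and 1 lower with tamoxifen in negative cells, where 1.62% of all genes were higher and 0.703% lower. In the trefoil cluster (Tff3, Tff2, Tff1 on chromosome 17), Tff3, the trefoil factor of goblet cells, had 9.36, 10.52, 9.97 and 6.71 in tamoxifen negative cells and 6.23, 6.60 and 6.53 in control negative cells. It was 2.69 ± 0.57 higher (adjusted p = 0.0133), a call lost without any 1 of 5 arrays (tamoxifen negative 2 or 3, or any control negative array; adjusted p up to 0.0784) or with only those groups fitted (adjusted p = 0.104). In the mucin cluster (Muc6, Muc2, Muc5ac, Muc5b on chromosome 7), Muc6, the gland mucin of mucous neck cells, was 2.52 ± 0.64 lower in tamoxifen negative than in control negative cells (adjusted p = 0.0381), and this call was lost without any 1 of the same 5 arrays (adjusted p up to 0.185) or with trended, robust variances (adjusted p = 0.0672). Tff2, chosen after its values were seen, lay between 10.91 and 12.80 on all arrays, with 0 of 9 calls between groups. Muc5b averaged 3.94 to 4.37 in the 6 groups, near background. In the same negative cells the mean of 6 mucous neck cell markers was 7.78 to 8.60 with tamoxifen and 9.69 to 9.97 in controls, with 3 of 6 lower. The 7 endocrine cell markers averaged 11.42, 11.56, 10.69 and 9.74 with tamoxifen and 8.50 to 9.82 in controls (1 of 7 higher, Hdc), lowest of the tamoxifen arrays on tamoxifen negative 4, where Tff3 was also lowest. The 8 parietal cell markers averaged 5.47 to 6.48 with tamoxifen and 6.86 to 7.34 in controls (4 of 8 lower), and the 6 chief cell markers 7.77 to 8.03 and 8.25 to 8.50 (0 of 6 passed). The part of these markers in the results of negative cells was not tested.

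Adh7 and its neighbour Adh1, a broadly expressed alcohol dehydrogenase, also had opposite patterns. Adh1 was 1.91 ± 0.24 higher in tamoxifen high than in tamoxifen negative cells and 1.56 ± 0.27 higher in control high than in control negative cells (adjusted p = 2.85e-05 and 0.000538). It was lower in tamoxifen low (9.17, 8.95, 9.33 and 8.98) than in control low cells (10.90, 10.46 and 10.66) (-1.57 ± 0.26, adjusted p = 0.000549). Of 12 measured alcohol and retinol genes, 1 was higher and 3 lower with tamoxifen in low cells, and 1 higher and 0 lower in high cells, with medians of -0.00 and 0.04. Over all genes, 5.35% were higher and 2.98% lower in low cells, and 1.7% higher and 1.04% lower in high cells. Rdh10, which oxidises retinol, was 2.55 ± 0.35 higher in low (adjusted p = 0.000116) and 1.95 ± 0.35 higher in high cells (adjusted p = 0.00426, and 0.201 with only those 2 groups fitted), and Aldh1a1, a retinaldehyde dehydrogenase, differed by -1.37 ± 0.20 in low cells (adjusted p = 0.000198). Aldh3a1, an aldehyde dehydrogenase, was like Adh7 low in high cells: -3.56 ± 0.55 against tamoxifen negative cells, and at least 9.38-fold lower against control negative cells.

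Among 11 measured of 12 other surface mucous cell genes, 6 were lower in high than in negative cells of tamoxifen mice and 6 in control mice. Over all genes, 6.97% and 7.66% were lower (tamoxifen, then control). The medians of the list were -0.57 and -0.75 in the same order. Not all of the list went this way: Psca averaged 12.69 in control high and 12.12 in control negative cells, without overlap. In tamoxifen mice Psca averaged 11.78 in high and 12.37 in negative cells. Vsig1, a junction protein of gastric epithelium, differed by -1.07 ± 0.24 in tamoxifen mice and -2.13 ± 0.27 in control mice, and Sult1c2, a sulfotransferase, by -1.36 ± 0.20 in tamoxifen mice and -1.49 ± 0.24 in control mice. Between treatments, 2 of the 11 were higher in low cells and 1 in negative cells, where 5.35% and 1.62% of all genes were higher. Cldn18, the tight junction claudin of the stomach, was 0.91 ± 0.13 higher in low (adjusted p = 0.0002) and 0.72 ± 0.13 higher in negative cells (adjusted p = 0.00473). Foxq1, a transcription factor that mice need for Muc5ac expression, was 1.24 ± 0.35 higher in low cells (adjusted p = 0.03), with the difference lost as a call without tamoxifen low 1, tamoxifen low 4, control low 1 or control low 2 (adjusted p up to 0.155), and with the mean of its rows (adjusted p = 0.0855). In high cells 2 of the 11 were higher and 1 lower (Psca), where 1.7% of all genes were higher and 1.04% lower. Foxq1 was 1.36 ± 0.35 higher there (adjusted p = 0.039) and Vsig1 1.03 ± 0.26 (adjusted p = 0.0339), and both were lost with only the 2 groups fitted (adjusted p = 0.189 and 0.212). The Foxq1 call was also lost without tamoxifen high 1, 2 or 3 or control high 1 or 2 (adjusted p up to 0.197), and that of Vsig1 without tamoxifen high 1 or control high 1 or 2 (adjusted p up to 0.183).

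Most called genes that build mucins were lower with tamoxifen in low and negative cells, but not in high cells. Of 17 genes for mucin glycosylation and folding, 6 were lower and 1 higher with tamoxifen in low cells, 5 lower and 0 higher in negative cells, and 0 lower and 1 higher in high cells. Over all genes, 2.98% were lower and 5.35% higher in low cells, and 0.703% lower and 1.62% higher in negative cells. In high cells 1.04% were lower and 1.7% higher. The list's median was -0.60 in low and -0.59 in negative cells, and 2 of its called genes, A4gnt and Agr2, are also on the mucous neck cell list. Creb3l1, a transcription factor of the secretory pathway, was -1.31 ± 0.23 in low cells (adjusted p = 0.00109) and -1.03 ± 0.23 in negative cells (adjusted p = 0.0195, and up to 0.118 without 1 array). B3gnt3, a glycosyltransferase of mucin-type glycans, was 0.86 ± 0.20 higher in low (adjusted p = 0.0095) and 1.27 ± 0.20 higher in high cells (adjusted p = 0.00155, and 0.14 with only those 2 groups fitted). Spdef, a transcription factor of mucous cells, was -0.86 ± 0.22 in negative cells (adjusted p = 0.0381, up to 0.19 without 1 array, and 0.072 with only those groups fitted). Galnt12, which starts mucin-type glycans, was -1.67 ± 0.33 in control high against control negative cells. Of 5 measured other membrane mucins, 0 passed between treatments in any population by limma, and 1 had an unadjusted p under 0.05 (Muc13 in low cells). Muc13 was 2.94 ± 0.66 higher in control high than in control negative cells (adjusted p = 0.00456) and 2.09 ± 0.58 higher in tamoxifen high than in tamoxifen negative cells (adjusted p = 0.0227, and up to 0.0756 without 1 array).

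How the members varied together within a group was read from each array's deviation from its group mean, a description over 21 arrays that fall into 6 groups. Gkn1 and Gkn2 deviated together (r = 0.93, and 0.79 without the 2 arrays farthest from the median of Gkn1), as did Muc5ac and Tff1 (0.89, and 0.76 likewise) and Muc5ac and Mucl3 (0.74 and 0.63). Muc5ac and Gkn1 had 0.45 (0.39). Mucl3 with Gkn1 and with Gkn2 depended on the 2 arrays left out, at 0.21 and 0.29 over all 21 arrays and 0.62 and 0.77 without them. Gkn1 and Gkn3 had 0.17, and Adh7 and Adh1 0.26. Gkn1 and Muc1 deviated in opposite directions (-0.84 and -0.78), but Muc1 deviated only from -0.13 to 0.13, against -1.80 to 1.59 for Gkn1. The 3 lowest and the 4 highest deviations of any member were all on tamoxifen high arrays. Tamoxifen high 2 was lowest of its group for Muc5ac, Tff1, Gkn1 and Gkn2. Tamoxifen high 1 was highest for Muc5ac, Tff1 and Mucl3, and tamoxifen high 4 for Gkn1 and Gkn2. Tamoxifen high 1 also had the highest mean of mucous neck cell markers in its group (10.73, within a group range of 8.93 to 10.73) and of endocrine markers (8.61, within 5.03 to 8.61), and the lowest of tuft cell markers (7.12, within 7.12 to 9.76), and their part in its values was not tested.

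**Figure D4:**
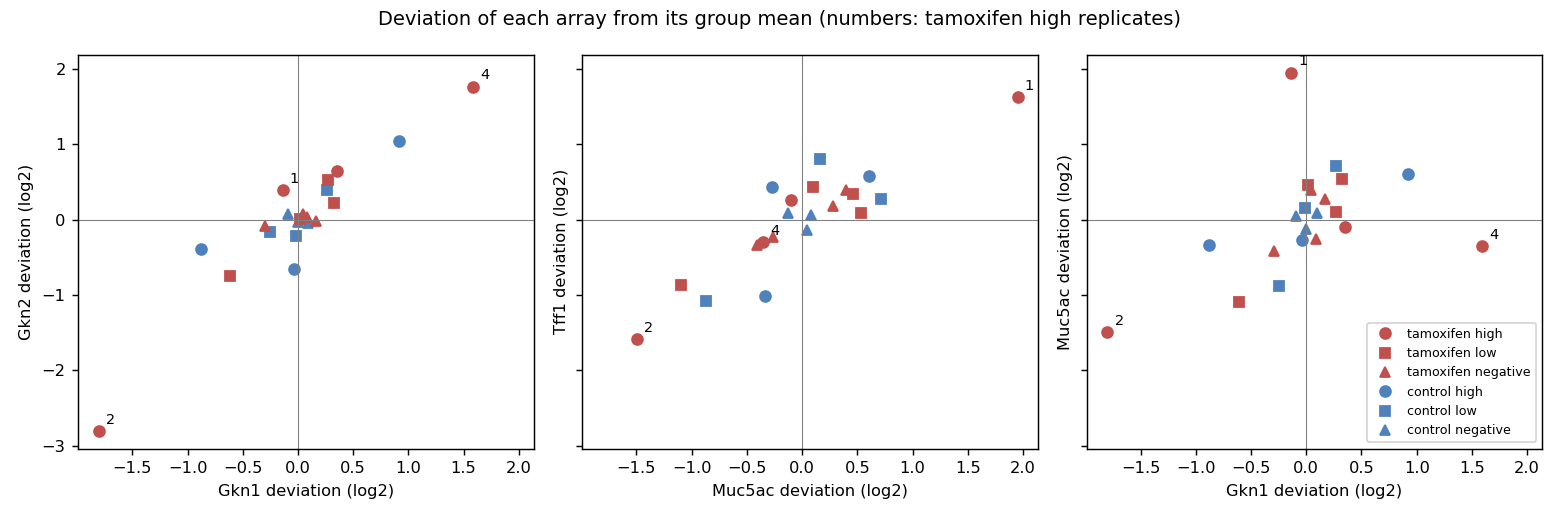
Deviation of each of the 21 arrays from its group mean, in log2 units on both axes, for Gkn1 and Gkn2, Muc5ac and Tff1, and Gkn1 and Muc5ac; colours are treatments, shapes are populations and numbers mark tamoxifen high replicates. Tamoxifen high 2 lies farthest down for Gkn2 and Tff1, and the correlations are 0.93, 0.89 and 0.45.

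Across all 21 arrays and 12086 other genes above background, the genes most like the mean of the 8 members were Sult1b1, a sulfotransferase (Pearson r = 0.97), Cbr3, a carbonyl reductase (0.96), Sptssb, a subunit of the sphingolipid-forming serine palmitoyltransferase (0.96), Sytl2, which in mouse acts in mucus granule release of surface mucous cells (0.95), and Gsta3, a glutathione transferase (0.95). These are descriptions, since the arrays fall into the same 6 groups for every gene. The genes were picked because they followed the members on these same arrays. Their differences and adjusted p below largely restate that choice and are not separate evidence. Sytl2 was at least 18.5-fold lower in control high than in control negative cells. It was also at least 4.64-fold higher in tamoxifen low than in control low cells (adjusted p = 0.000637). Sptssb was at least 18.1-fold lower in control high than in control negative cells and at least 2.44-fold higher in tamoxifen low than in control low cells (adjusted p = 0.000193). Gsta3 was 1.08 ± 0.25 higher in tamoxifen low than in control low cells, with a low minus negative term of 1.78 ± 0.36 (adjusted p = 0.019).

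The nearest genes of single members were not the same. They were picked in the same way, so their differences below are likewise descriptions. For Muc5ac they were Sult1b1 and Higd1a, for Tff1 Higd1a and Ppa1, for Gkn1 and Gkn2 Cbr1 and Sult1b1, and for Mucl3 Sptssb and Tnni2 (r from 0.91 to 0.96). Adh7 was nearest to Nqo1, a quinone reductase, and Car13, a carbonic anhydrase (0.93 each). Nqo1 was at least 13.0-fold lower in tamoxifen high than in tamoxifen negative cells, and differed by -4.08 ± 0.45 between control high and control negative cells. Anxa10 was nearest to Sectm1b and Fubp1 (0.95 and 0.94), and Sectm1b was at least 7.47-fold higher in tamoxifen low than in control low cells (adjusted p = 0.00102). Muc1 was nearest to Esyt1, a membrane tether, and Osmr, the oncostatin M receptor (0.93 each). Esyt1 was higher with tamoxifen in high (0.89 ± 0.18), low (1.53 ± 0.18) and negative cells (0.78 ± 0.18), and Osmr in high (2.81 ± 0.42, adjusted p = 0.00111, and 0.122 with only those 2 groups fitted), low (2.77 ± 0.42) and negative cells (at least 2.95-fold, adjusted p = 0.0393, and up to 0.173 without 1 array).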

How the data were processed

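RNA of sorted mouse stomach corpus cells was measured on 21 arrays (6 groups). Per the labels' protocols, total RNA was made into whole-transcriptome cDNA and labelled with biotin. The authors deposited log2 signal for 41345 rows. The submitters' processing notes name oligo, RMA, limma (3.26.8) and R (3.2.3) without saying what each did. The genome build is not given in the sources used here, and 0 columns were left out.

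From the deposited log2 values, 23521 rows that name exactly 1 gene were kept (1814 name several, 16010 are not listed in the platform annotation), symbols were updated by gene number for 23328 of them, and the brightest row by mean over 21 arrays stood for a gene, which left 22180 genes. Group means were fitted with limma 3.58.1 in R 4.3.3 (lmFit, eBayes, 15 residual and 5.27 prior degrees of freedom) over all 21 arrays, for 12 comparisons, with two-sided tests, and p-values adjusted over all genes by the Benjamini-Hochberg method. Errors of differences are standard errors of that model. Where the dimmer group averaged at or under background, the fold is a bound against the background guide. The fit was tested on simulated data. The number of arrays limits precision.

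The members and lists were chosen with earlier results of these data known. Named besides the members were up to 4 called genes per list with the smallest adjusted p, the 2 genes most correlated with each member and the 5 with the mean of the members, predicted genes left out. Alternatives were cyclic loess, the mean of a gene's rows, trended robust variances, only the groups compared, without the dimmest 25 percent of genes, blocks, and each array left out.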

Additional observations from a re-analysis of the deposited data

How the results depend on the processing

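The counts of called members were within 1.5 times of those reported in most settings. Between treatments in high cells, 1 member (Muc1) passed with trended, robust variances and 1 with the replicate number as a block, against 0. With only the groups compared, 2 passed between treatments in negative cells (Gkn1 and Gkn2) against 0, 0 between tamoxifen high and low cells against 5, and 2 for the low minus negative term (Muc5ac and Mucl3) against 0. Without the dimmest 25 percent of genes that term gave 1. Leaving out 1 array gave 0 to 2 calls between treatments in high cells, 3 to 4 in low and 0 in negative cells, 1 to 6 between tamoxifen high and low cells, 3 to 4 between tamoxifen low and negative cells, 5 to 7 between control low and negative cells, 0 to 1 for the low minus negative term, and the reported count in the other comparisons. The cause of these shifts was not tested. Over all genes, a fit of only the groups compared called 12 against 606 (between treatments in high cells), 938 against 2283 (tamoxifen high and negative), 245 against 715 (tamoxifen high and low), 147 against 297 (control high and low), 1807 against 1168 (control low and negative), 16 against 55 (high minus negative) and 291 against 186 (low minus negative).

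Differences near 0 changed sign. With cyclic loess, Muc1 was 0.094 between tamoxifen high and low cells and 0.047 between control low and negative cells, and the median of all genes moved by less than 0.1 in every comparison. With 1 array left out, differences between treatments in high cells ran from -0.74 to 0.41 for Muc5ac, -0.57 to 0.50 for Tff1 (both highest without tamoxifen high 2) and -0.33 to 0.083 for Adh7. They ran from -0.34 to 0.021 for Anxa10 between tamoxifen low and negative cells, -0.061 to 0.023 for Muc1 between tamoxifen high and low cells, -0.044 to 0.011 for Muc1 between control low and negative cells, and -0.75 to 0.19 for Mucl3 between control high and low cells. There, Adh7 was -0.22 to 0.19. None of these had passed.

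The titles carry a number shared between populations and a replicate number. Of 19 pairs of arrays with the same title number, 11 had deviations correlated above 0.1 (range -0.16 to 0.41), and 9 of 20 arrays correlated best with their own number, so over all pairs the numbers were not taken to pair the samples. In tamoxifen mice 3 of 10 pairs were above 0.1 and in control mice 8 of 9, with 3 of 3 for control high and low (0.22 to 0.32) and 3 of 3 for control low and negative cells (0.11 to 0.23). With the number as a fixed block, no call on a member changed in control mice. With the shared title number as a fixed block, Gkn2 passed (adjusted p = 0.0381) and Adh7 did not (0.072) between tamoxifen low and negative cells. As a random block its correlation was 0.07. Pairs with the same replicate number across treatments correlated at -0.18 to 0.18 (2 of 9 above 0.1), and that block called 1128 genes against 606 in high and 845 against 515 in negative cells.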
